A study of Drosophila melanogaster with 8 samples.

Results

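The yolk protein and lipoprotein genes comprise 8 genes that supply the growing egg and the circulation with lipid and protein. They were taken by symbol from the 17411 genes of the deposited count files, and all 8 were found. They are the yolk proteins Yp1, Yp2 and Yp3, the apolipoproteins apolpp and Apoltp, the lipid transfer protein Mtp, and the lipophorin receptors LpR1 and LpR2. The files list apolpp under its older symbol Rfabg, matched through the synonyms and the identical span of the RefSeq gene table. Poly(A)-selected RNA-seq was run on cuticle that still carried its fat body, from adult Drosophila melanogaster females aged 1 week. Controls (yolk-Gal4/w1118, n = 4) carried the driver over a w1118 chromosome, and the 9G8 RNAi flies (yolk-Gal4>9G8RNAi, n = 4) used the same driver to express a hairpin against 9G8, an SR splicing factor encoded by x16. All flies therefore carried a Gal4 transgene named for yolk, and yolk gene promoters can drive expression in female fat body but also in follicle cells. Controls had no hairpin transgene. The insertion, the strain background and the hairpin cannot be told apart.

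In adult female flies the fat body makes yolk proteins under the control of the female form of doublesex, with input from ecdysteroids, juvenile hormone and nutrition, and secretes them into the hemolymph. The follicle cells around a vitellogenic oocyte make the same 3 proteins, and the oocyte takes them up through the receptor Yolkless (yl). Lipophorin is the main lipid carrier of the hemolymph. Its scaffold is apoLpp, which Mtp loads with lipid in the fat body, while the lipid transfer particle built on Apoltp helps to load it further at the gut. Lipophorin receptors of the low density lipoprotein receptor family let tissues such as the ovary take lipid from these particles.

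The genes lie in 6 places on BDGP6, by the coordinates of the deposited files. Yp1 (FBgn0004045, plus strand of X, 10053811 to 10055498) and Yp2 (FBgn0005391, minus strand of X, 10050951 to 10052636) are divergent neighbours with 1174 bases between their spans. Yp3 (FBgn0004047) lies apart on the plus strand of X from 13759546 to 13761547. The receptor genes LpR2 (FBgn0051092, 25698727 to 25740465) and LpR1 (FBgn0066101, 25741348 to 25763105) are neighbours on the minus strand of 3R, 882 bases apart. The remaining genes are apolpp (FBgn0087002, chromosome 4, 1060969 to 1077273), Apoltp (FBgn0032136, 2L, 9634179 to 9656026) and Mtp (FBgn0266369, 2L, 20919094 to 20922876).

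A property of the counting bears on Yp1. Of its 1611 exon bases, 875 (54.3%) are also exon bases of the antisense gene CR45601, and CR45601 had 0 counts in all 8 libraries. Across the files, 132 of 133 genes whose exons lie wholly inside exons of opposite-strand genes had 0 counts in every library, against 4.96% of the 12002 genes that share no exon base. For genes wholly inside same-strand exons it was 327 of 328. Reads on bases shared by genes of either strand were thus left out of the deposited counts, so the 0 of CR45601 says nothing of its expression. The Yp1 count rests on the 736 bases that it shares with no gene, and its level per length is understated by 2.19-fold if reads were spread evenly. Comparisons of Yp1 between libraries are not altered by this loss if reads were spread alike along the gene in all libraries, which was not tested. For apolpp 96 of 11766 exon bases are shared, with Zyx, and the other members share none.

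The libraries held 25396063 to 36181492 counts. Levels between libraries are given as CPM, the counts of a gene scaled to a common library total, after TMM scaling, a library scaling that assumes most genes do not differ, and values are mean ± SD over 4 libraries. Nothing in the labels ties the libraries of a genotype to separate rearings, so p-values rest on a spread between libraries that may be technical. The targeted gene x16 was at 60.4, 65.6, 325.5 and 145.1 CPM in controls 1 to 4 and at 198.6, 34.7, 103.1 and 49.5 CPM in 9G8 RNAi libraries 1 to 4, so the groups overlapped and a lower level was not detectable. In the list of adult fat body markers, 1 of 10 tested genes passed the test described below, the storage protein gene Lsp2, which fell, and the summed level was 906.8 to 1158 TPM, a level per gene length, in controls and 538.9 to 1388 TPM in 9G8 RNAi. Markers of other tissues were present. The gut list was at 174.8 to 14076 TPM in controls and at 14822 to 27920 TPM in 9G8 RNAi, with 3 of 10 tested genes higher (thetaTry, deltaTry and lambdaTry). The oenocyte list was at 3965 to 5146 and 4937 to 12171 TPM (0 of 8 passed), muscle at 485.1 to 781.7 and 469.4 to 892.2 TPM (0 of 10), and neurons at 1.31 to 1.77 and 1.22 to 2.93 TPM (0 of 6). Hemocyte markers were at 24.4 to 62.4 and 12.0 to 45.2 TPM, with He and Pxn lower among 7 tested. The spermatheca list was at 1090 to 2604 and 165.4 to 463.8 TPM, with CG18067 lower among 5 tested. CG18067 made up most of that list, at a mean of 2702 and 346.2 CPM. The next gene, Send1, was at 64.5 and 38.1 CPM and did not pass. The germline list was at 22.2 to 253.3 and 50.1 to 197.5 TPM, and 0 of 14 passed. The part of these tissues in the results below was not tested, except where eggshell and germline values are given.

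Yolk protein transcripts were more abundant in 9G8 RNAi libraries, with Yp2 the member that passed the test across all genes. Together the 3 genes took 0.458%, 0.570%, 0.427% and 0.492% of all counts in the numbered order of the controls, against 1.15%, 2.59%, 1.13% and 0.780% in that of the 9G8 RNAi libraries. The share was thus higher in each 9G8 RNAi library than in any control, with library 2 far above the rest.

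Yp2 was at 1732, 2355, 999.4 and 1517 CPM in controls and at 3852, 7345, 5001 and 3856 CPM in 9G8 RNAi. The groups did not overlap, and the lowest 9G8 RNAi value was above the highest control value. Yp2 rose from 1651 ± 561.0 to 5013 ± 1646 CPM, which is 1.60 ± 0.40 (SE) on the log2 scale. Its adjusted p was 0.0490 (edgeR, quasi-likelihood, Benjamini-Hochberg over 9846 tested genes). The call was close to the threshold of 0.05 and was lost when any library but 9G8 RNAi 4 was left out (adjusted p from 0.0589 to 0.153), while the log2 fold change stayed between 1.34 and 1.83. With RLE size factors the adjusted p was 0.0679.

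Yp3 was at 2674, 4149, 2825 and 1664 CPM in controls and at 4388, 5603, 5830 and 5694 CPM in 9G8 RNAi. Again each 9G8 RNAi value lay above each control value, although control 2 came close to 9G8 RNAi 1. The means were 2828 ± 1020 and 5379 ± 666.7 CPM, and the log2 fold change of 0.93 (SE 0.37) did not pass (edgeR adjusted p = 0.270).

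Yp1 was at 1142, 406.0, 329.4 and 921.9 CPM in controls and at 1861, 3927, 1860 and 744.0 CPM in 9G8 RNAi. The groups overlapped, because 9G8 RNAi 4 lay below controls 1 and 4. The means were 699.7 ± 395.0 and 2098 ± 1328 CPM, and the log2 fold change was 1.58 (SE 0.55, edgeR adjusted p = 0.187), close to that of Yp2 but with a wider error. Yp1 did not pass in this fit, and by DESeq2 its adjusted p was 0.0499.

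**Figure D1:**
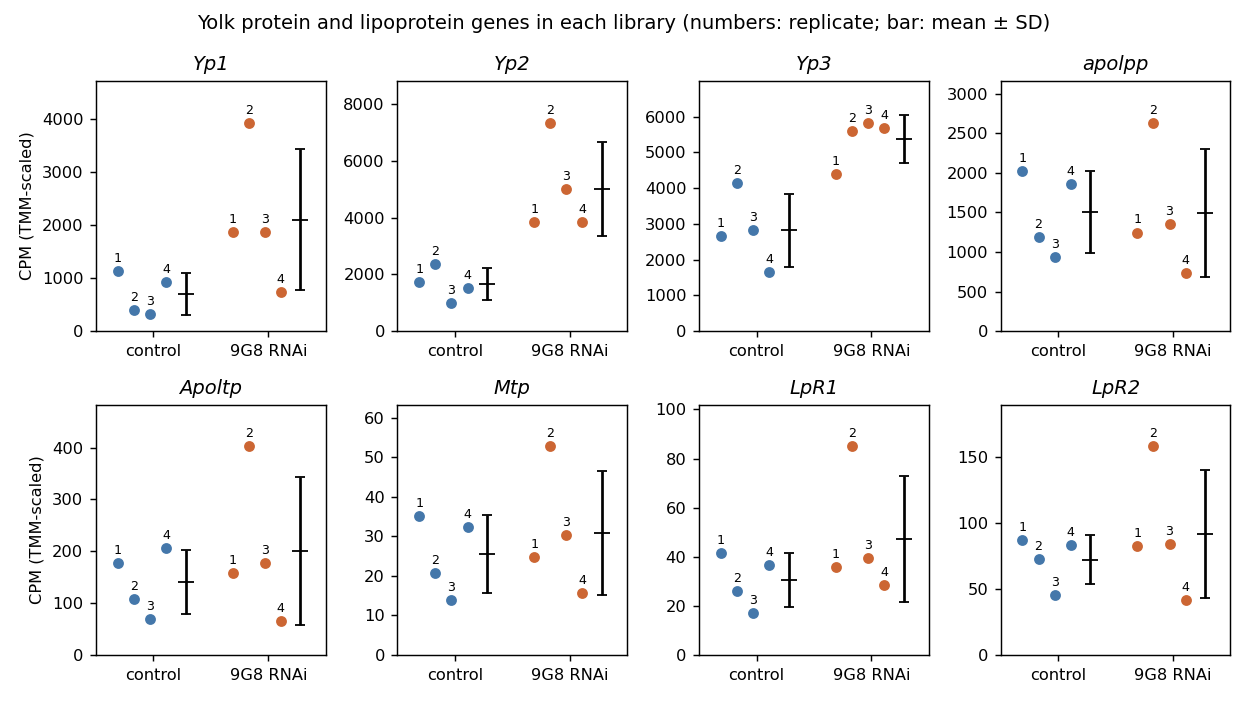
Level of each of the 8 genes in each library, in TMM-scaled CPM on linear axes from 0, with controls in blue, 9G8 RNAi in orange, the replicate number above each point, and the mean ± SD of 4 libraries as a bar. The 9G8 RNAi points of Yp2 and Yp3 all lie above the control points, and 9G8 RNAi 2 is the highest library for every gene except Yp3.

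Across all tested genes 316 of 9846 (3.21%) passed at an adjusted p under 0.05, 98 higher (0.995%) and 218 lower (2.21%). Among the 8 members 1 passed, Yp2, and it was higher. At an unadjusted p under 0.05 there were 3 of 8, the yolk proteins, where 12.9% of all genes reached it and 5.08% did so with a higher level. In 2 of 8 members, Yp2 and Yp3, the groups did not overlap and 9G8 RNAi lay above, where 8.73% of all genes had groups apart and 2.96% had them apart in this direction. Log2 fold changes were positive in 7 of 8 members and in 50.8% of all genes. The median log2 fold change was 0.58 over the members and 0.01 over all tested genes. The members were measured in the same libraries and several varied together, so their signs are not independent. Without 9G8 RNAi 2 the log2 fold changes of apolpp, Apoltp, Mtp and LpR2 were negative. With library totals alone as the scaling, which moved the median of all genes by 0.16, Yp2 and Yp3 passed (log2 fold changes 1.89 and 1.14). In data simulated for this comparison, 2.65% of 2-fold and 45.3% of 4-fold changes were called. These rates are averages over randomly drawn genes, each with its own spread, and are not the rates for Yp3.

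None of the lipoprotein and receptor genes passed, and the groups overlapped in each. Whether they differed from the yolk genes in their change was not tested. The lipophorin scaffold gene apolpp was at 2030, 1195, 940.1 and 1857 CPM in controls and at 1247, 2634, 1353 and 739.5 CPM in 9G8 RNAi. The highest and the lowest of the 8 values were both 9G8 RNAi libraries, 2 and 4. The means were 1505 ± 520.9 and 1493 ± 806.1 CPM and the log2 fold change was -0.01 (SE 0.44, edgeR adjusted p = 0.998), with a 95% interval from -0.97 to 0.94 that leaves room for a sizeable change either way. Its sign is not fixed, since it was 0.31 with library totals and 0.085 with TMM computed without the 20 most abundant genes.

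Apoltp, which makes the lipid transfer particle, was at 177.8, 108.0, 70.1 and 205.3 CPM in controls and at 158.1, 402.1, 177.7 and 64.4 CPM in 9G8 RNAi. Mtp was at 35.2, 20.8, 14.0 and 32.2 CPM in controls and at 24.6, 52.7, 30.3 and 15.7 CPM in 9G8 RNAi. In both genes 9G8 RNAi 2 was the highest library and the other 9G8 RNAi values fell within or next to the control range. The log2 fold changes were 0.52 (SE 0.52) for Apoltp and 0.27 (SE 0.42) for Mtp, and neither passed (edgeR adjusted p = 0.864 and 0.924).

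The receptor gene LpR1 was at 41.7, 26.0, 17.1 and 36.7 CPM in controls and at 35.9, 84.9, 39.4 and 28.5 CPM in 9G8 RNAi. LpR2 was at 87.2, 72.7, 45.8 and 83.5 CPM in controls and at 83.0, 158.4, 84.4 and 42.0 CPM in 9G8 RNAi. The groups overlapped in both, again with 9G8 RNAi 2 on top. The log2 fold changes were 0.64 (SE 0.41) for LpR1 and 0.35 (SE 0.41) for LpR2 (edgeR adjusted p = 0.659 and 0.891).

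**Figure D2:**
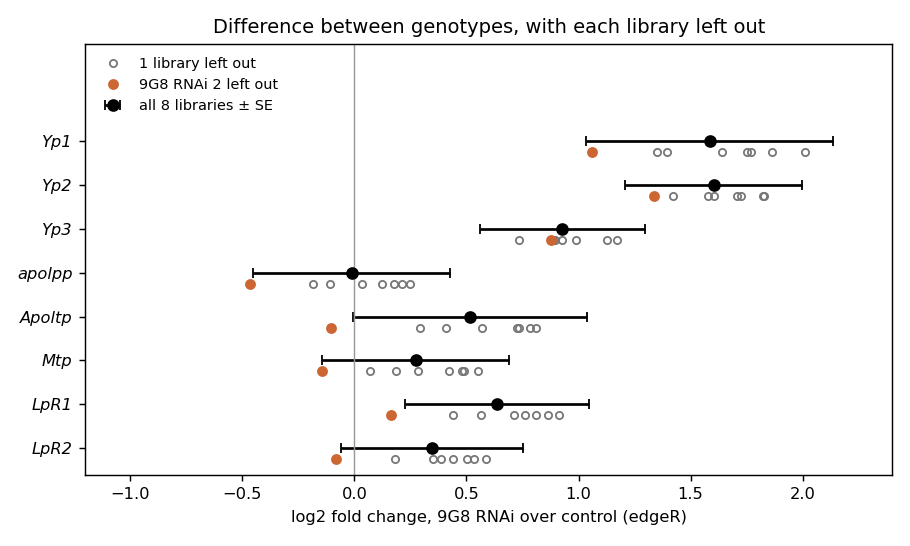
Log2 fold change of 9G8 RNAi over control for each gene by edgeR, with all 8 libraries as a filled point ± SE, with a library left out as open points, and with 9G8 RNAi 2 left out in orange. The 3 yolk protein genes stay above 0 throughout, from 0.74 to 2.01. Without 9G8 RNAi 2, Apoltp, Mtp and LpR2 change sign, and apolpp, at -0.01 with all libraries, is at its lowest (-0.47).

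The 9G8 RNAi 2 library decided the sign for Apoltp, Mtp and LpR2. Without it the log2 fold changes were -0.47 for apolpp, -0.10 for Apoltp, -0.14 for Mtp, 0.16 for LpR1 and -0.08 for LpR2, and none of the 8 genes passed. Among the 9G8 RNAi libraries its CPM was above the mean of the other 3 by 2.37-fold for apolpp, 3.01-fold for Apoltp, 2.24-fold for Mtp, 2.45-fold for LpR1 and 2.27-fold for LpR2. The same ratio was 2.64 for Yp1, 1.73 for Yp2 and 1.06 for Yp3. The library also had the largest TMM factor (1.54, others 0.758 to 1.201). Its summed levels of the oenocyte, muscle and neuron lists (12171, 892.2 and 2.93 TPM) were likewise the highest. It was not the highest library for the gut, hemocyte, spermatheca or germline lists. Its adult fat body score, the mean log2 CPM of that list, was 5.90, within the control range of 5.20 to 6.01, but its summed level of 1388 TPM was the highest of the 8 libraries.

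Within each genotype the genes split by how they varied from library to library. Controls ranked 1, 4, 2, 3 from high to low for Yp1, apolpp, Mtp, LpR1 and LpR2, and 4, 1, 2, 3 for Apoltp. The 9G8 RNAi libraries ranked 2, 3, 1, 4 for apolpp, Apoltp, Mtp, LpR1 and LpR2, and 2, 1, 3, 4 for Yp1. Yp3 ranked otherwise, with controls 2, 3, 1, 4 and 9G8 RNAi libraries 3, 4, 2, 1, so that the control with least Yp3, control 4, was the second highest for Yp1. Scaled by library totals, the 5 lipoprotein and receptor genes still shared their ranks, 4, 1, 2, 3 in controls and 2, 1, 3, 4 in 9G8 RNAi, but Yp3 then had the 9G8 RNAi ranks 2, 3, 1, 4. The hemocyte and neuron scores also ranked the controls 4, 1, 2, 3, and 9G8 RNAi 2 was the highest of its genotype in both. How many of all genes share these ranks was not counted, so they are not shown to be particular to the members. In bulk tissue fewer cells of a type and less RNA per cell cannot be told apart.

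**Figure D3:**
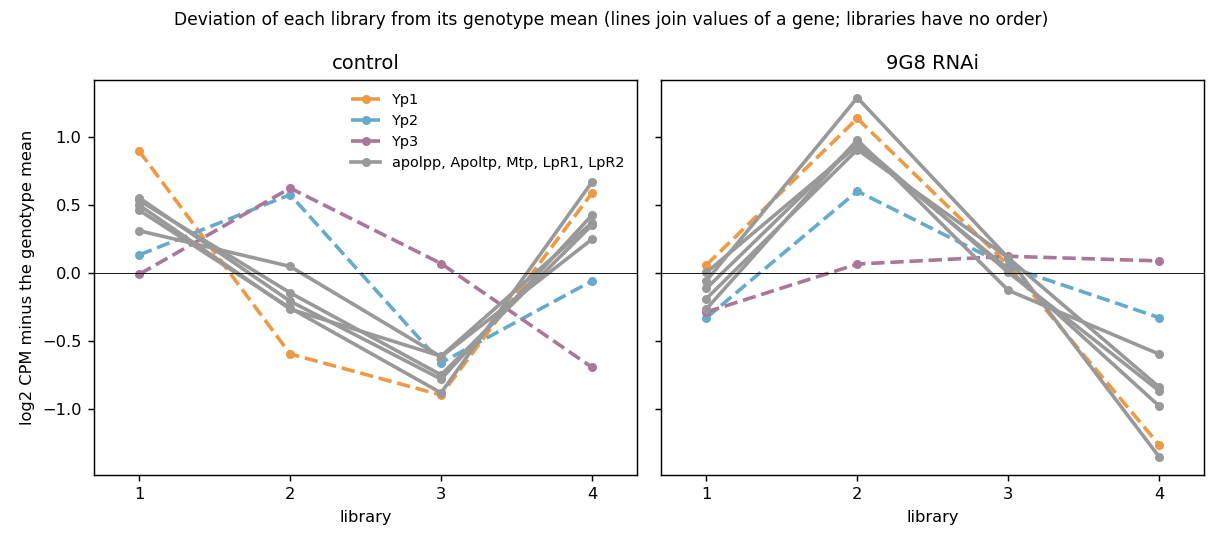
Deviation of log2 CPM from the mean of the genotype, by library, for the 3 yolk protein genes (dashed) and the 5 lipoprotein and receptor genes (grey). The grey lines and Yp1 move together in both genotypes, Yp3 does not follow them, and Yp2 lies between.

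Ratios between genes within a library do not depend on the library scaling, and they show the same split. Per kilobase of exon, apolpp exceeded Mtp by 14.4-, 14.3-, 16.8- and 14.4-fold in controls and by 12.6-, 12.4-, 11.1- and 11.7-fold in 9G8 RNAi, a narrow range although each gene varied by 3.56-fold or more over the libraries. Every control ratio lay above every 9G8 RNAi ratio, a difference noticed among the ratios after their values were seen and not tested. The groups were also apart for the ratio of apolpp to the 3 yolk genes together, likewise not tested. It was 0.0259 to 0.0657 in controls and 0.0107 to 0.0224 in 9G8 RNAi. The ratio of apolpp to Apoltp was 12.9, 12.5, 15.2 and 10.25 in controls and 8.93, 7.42, 8.63 and 13.0 in 9G8 RNAi, with overlap. LpR2 exceeded LpR1 per kilobase in all 8 libraries, by 2.52 to 3.36 in controls and by 1.78 to 2.79 in 9G8 RNAi.

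The make-up of the yolk transcripts was far less steady. Per kilobase of deposited exon length the ratio of Yp3 to Yp1 was 2.02, 8.81, 7.40 and 1.56 in controls and 2.03, 1.23, 2.70 and 6.60 in 9G8 RNAi. The ratio of Yp2 to Yp1, the divergent pair, was 1.51, 5.77, 3.02 and 1.64 in controls and 2.06, 1.86, 2.68 and 5.16 in 9G8 RNAi. Controls 2 and 3 and 9G8 RNAi 4 were thus poor in Yp1 relative to the other yolk proteins, and both genotypes held libraries of either kind. Yp2 made up 33.3%, 37.0%, 26.5% and 39.1% of yolk transcripts in controls and 40.5%, 45.5%, 42.0% and 40.4% in 9G8 RNAi by this measure. Counted per base shared with no other gene, Yp1 became the most abundant yolk transcript in controls 1 and 4 and in 9G8 RNAi 1 and 2, at 38.3%, 40.7%, 34.8% and 41.4%, and Yp3 stayed first in the other 4 libraries. The order of Yp1 against Yp2 and Yp3 thus turned on the length used. The shorter length raises Yp1 by the same 2.19-fold in every library, so the swing between libraries could not change with it. Whether reads were spread alike along Yp1 in all libraries was not tested.

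**Figure D4:**
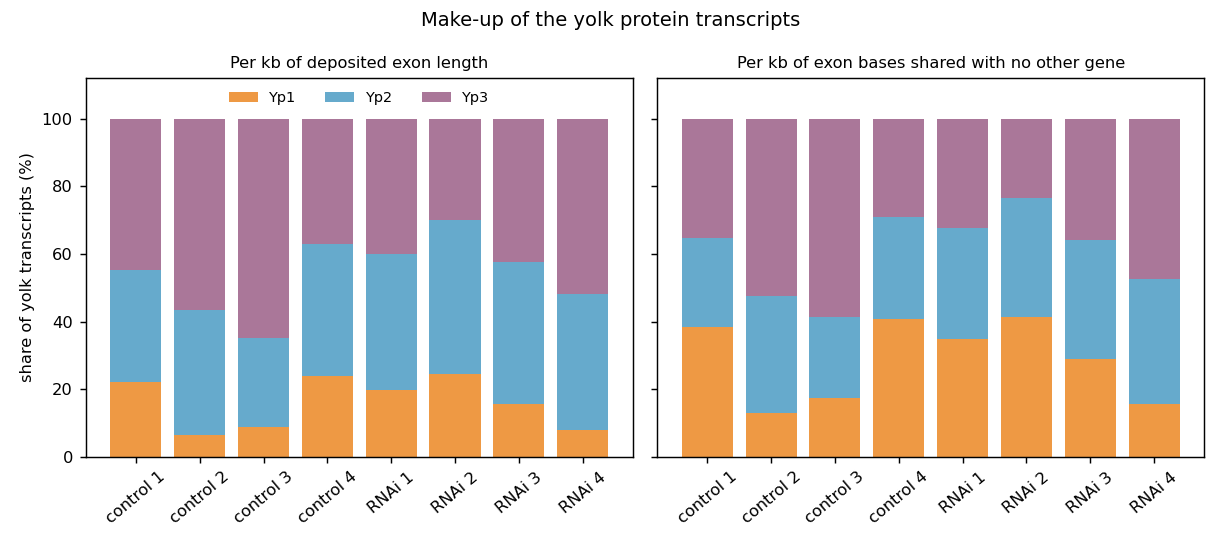
Share of Yp1, Yp2 and Yp3 in the yolk protein transcripts of each library, in percent of their summed counts per kilobase, with the deposited exon length on the left and with the bases that no other gene shares on the right. Yp1 ranges from 6.42% to 24.4% on the left and from 13.0% to 41.4% on the right. The same libraries are low in both by construction, as the shorter length raises Yp1 by the same factor in every library.

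By level per length the yolk proteins stood above apolpp, and apolpp above the other 4 genes, within every library. With deposited lengths, Yp3 or Yp2 came first in every library, with Yp1 next after the pair, then apolpp, and with LpR1 last. In controls the mean TPM of Yp1 was 3.39 times that of apolpp and apolpp was 9.83 times LpR2, in both cases with no overlap between the 4 values of each gene. The other neighbours in the control order overlapped: Yp3 and Yp2, Yp2 and Yp1, LpR2 and Apoltp, Apoltp and Mtp, and Mtp and LpR1. In 9G8 RNAi, where libraries differed more, all 7 neighbouring pairs overlapped across libraries. Among all genes of the files, Yp3 ranked 128 to 180 by TPM in controls and 25 to 106 in 9G8 RNAi, and apolpp 562 to 1152 and 347 to 1404. Yp1 ranked 239 to 549 and 43 to 362, a standing that the loss of shared bases described above lowers.

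Eggshell transcripts were set beside the yolk genes in each library, because follicle cells make both. The Vm genes encode vitelline membrane proteins, made by follicle cells while these also make yolk proteins, and chorion genes are switched on later. Vm26Aa had 12, 1231, 13 and 274 counts in controls 1 to 4 and 10138, 113, 12965 and 34 counts in 9G8 RNAi libraries 1 to 4. The 9G8 RNAi libraries 1 and 3 thus held nearly all of it. The 15 genes of the vitelline membrane and oocyte coat list had a median log2 fold change of 1.94. All 15 were positive, from 0.005 for yellow-g and 0.05 for yellow-g2 to 7.70 for Vm32E. They were measured in the same libraries, so the 15 signs are not independent. Of them 1 passed, Vm26Ac (log2 fold change 7.48, SE 1.84, edgeR adjusted p = 0.0487), with groups that overlapped. Leaving out any of controls 1 to 3 or of 9G8 RNAi 1 to 3 ended that call (adjusted p from 0.0530 to 0.145).

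By TPM the order of the libraries by yolk level was that of the 5 Vm genes in controls but not in 9G8 RNAi. The summed level of the 5 Vm genes was 1.505, 57.6, 1.49 and 28.4 TPM in controls, and the yolk genes there were at 2494, 3005, 2280 and 2666 TPM. Controls 2, 4, 1 and 3 thus ranked alike from high to low in both, over a far narrower range for yolk. Controls 1 and 3 were nearly equal in Vm RNA. Over the whole vitelline membrane list control 4 came first, at 448.1 TPM against 66.4 TPM in control 2. By CPM no yolk gene ranked the controls 2, 4, 1, 3. The ranks were 1, 4, 2, 3 for Yp1, 2, 1, 4, 3 for Yp2 and 2, 3, 1, 4 for Yp3. In 9G8 RNAi libraries 1 to 4 the Vm genes were at 1005, 18.9, 1637 and 3.14 TPM and the yolk genes at 6336, 17259, 6065 and 4268 TPM. The 9G8 RNAi 2 library, with most yolk RNA, and 9G8 RNAi 4 both had less Vm RNA than controls 2 and 4. They had more of it than controls 1 and 3, and yolk TPM above any control. The 9G8 RNAi 4 library did hold other eggshell RNA, with 199.0 TPM over the whole vitelline membrane list. The ratio of yolk to Vm TPM ran from 3.70 in 9G8 RNAi 3 to 1657 in control 1.

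Chorion transcripts gave another distribution. The 10 chorion genes were at 20.5, 10.01, 28.7 and 13875 TPM in controls and at 10123, 83.4, 21.6 and 1612 TPM in 9G8 RNAi, so control 4 and 9G8 RNAi 1 held most of them. None of the 10 passed. By raw counts and by score 9G8 RNAi 1 was the higher of the pair (324224 against 288374 counts). The yolk share of counts was 0.492% in control 4, within the range of the other controls, and 1.15% in 9G8 RNAi 1. The oocyte receptor gene yl, which is not a follicle cell gene, had 54, 213, 1797 and 3798 counts in controls and 4357, 2298, 1442 and 169 counts in 9G8 RNAi.

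**Figure D5:**
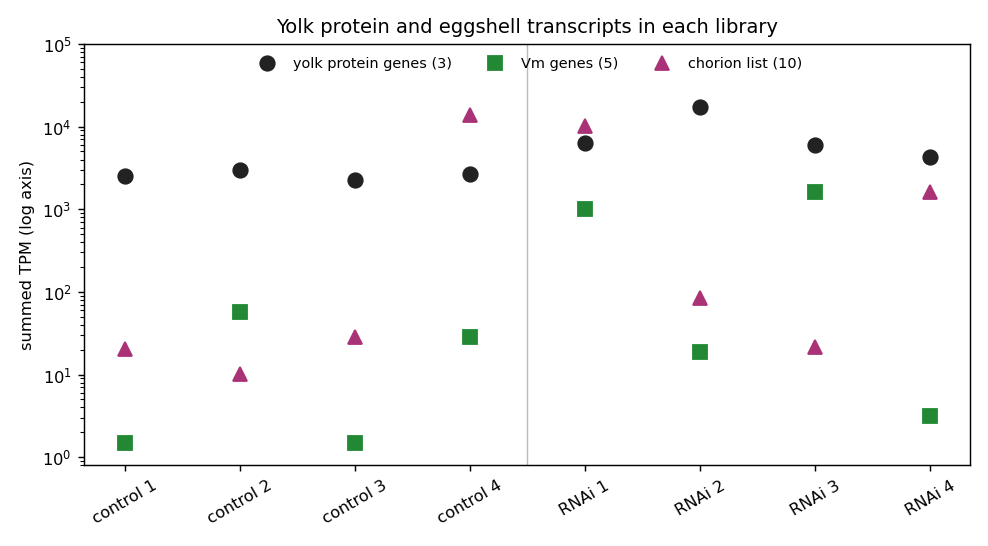
Summed TPM of the 3 yolk protein genes, the 5 Vm genes and the 10 chorion genes in each library, on a log axis, with controls left of the grey line. Yolk transcripts span 2280 to 17259 TPM while Vm transcripts span 1.49 to 1637 TPM. The library with most yolk RNA (RNAi 2) has 18.9 TPM of Vm and 83.4 TPM of chorion transcripts. Controls 1 and 3 have less of both.

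Both eggshell scores fell into separate clusters of 5 and 3 libraries, so no correlation with them was computed. With the vitelline membrane score as a covariate Yp2 had a log2 fold change of 1.69 (edgeR adjusted p = 0.105), and with the chorion score 1.68 (adjusted p = 0.0702). Without the 3 libraries with the highest vitelline membrane score (9G8 RNAi 1, 9G8 RNAi 3 and control 4), a choice made after the values were seen, it was 1.79 (adjusted p = 0.271), and that of Yp1 was 1.99 and of Yp3 0.86. None of the 3 passed. That fit had 2 9G8 RNAi libraries, 2 and 4, and the latter still had a chorion score of 4.67, in the upper cluster. Against the germline score the 8 genes had Pearson r from -0.09 to 0.22 and Spearman rho from -0.12 to 0.24 over 8 libraries, with an adjusted p of 1 for each by exact permutation over 16 tests. Leaving out the 2 libraries farthest from the median score gave r from -0.58 to 0.45.

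Among the genes that act around the members, 2 of the lipid handling genes fell and no gene of the lists on yolk gene control or lipoprotein assembly passed. Of 21 tested genes that control yolk protein genes 0 rose, 0 fell and 21 did not pass, with a median log2 fold change of 0.09. Counts by gene do not separate splice forms, so the female form of doublesex was not measured, nor were splice forms of the other genes. Sxl, the switch gene of female development, was at 34.5 ± 6.90 and 38.3 ± 8.70 CPM (0.15, edgeR adjusted p = 0.942). The partner of transformer, tra2, was at 98.0 ± 32.9 and 37.8 ± 18.7 CPM (-1.38, adjusted p = 0.0970), with all 9G8 RNAi values below the controls.

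Of 15 genes of lipoprotein assembly and secretion 0 passed, and 3 had positive log2 fold changes (median -0.31). Sar1, the GTPase that starts COPII vesicle coats, was at 434.2 ± 143.7 and 437.9 ± 148.7 CPM, and Sec13, a COPII coat protein, at 267.5 ± 66.3 and 153.1 ± 45.6 CPM (-0.80, edgeR adjusted p = 0.343). Of 12 tested genes of the lipoprotein receptor family and lipid handling 0 rose, 2 fell and 10 did not pass (median -0.16). The glypican dlp, a heparan sulfate proteoglycan of the cell surface, fell from 15.3 ± 5.41 to 3.38 ± 1.52 CPM (-2.18, SE 0.44, edgeR adjusted p = 0.0204), a call lost without control 1 (adjusted p = 0.0661), 9G8 RNAi 2 (0.0774) or 9G8 RNAi 3 (0.0644), with library totals (0.0695) and without the 3 libraries richest in vitelline membrane genes (0.246). It passed in 16 of 21 other settings. Npc2a, a sterol-binding protein, fell from 396.2 ± 97.4 to 122.6 ± 49.8 CPM (-1.69, SE 0.41, edgeR adjusted p = 0.0465), and leaving out any control, 9G8 RNAi 1 or 9G8 RNAi 3 ended that call (adjusted p up to 0.162). It passed in 7 of 21 other settings, and RLE factors (adjusted p = 0.0731), TMM without the 20 top genes (0.0667), no filter (0.0683) and the vitelline membrane covariate (0.0749) also ended it. In both genes all 9G8 RNAi values lay below the controls. The receptor genes yl, Lrp1, mgl and arr of the list did not pass (edgeR adjusted p from 0.424 to 0.967).

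The genes whose log2 CPM followed a member most closely over the 8 libraries differed between the members. For Yp1 they were LM408 (Pearson r = 0.991), Ugt86Dd (0.990) and wit (0.990), and for Yp3 they were w (0.984), Desat2 (0.983) and T3dh (0.978). For apolpp they were CG42390 (0.988), CG4733 (0.986) and Tequila (0.983), and for LpR2 they were ref(2)P (0.989), Hmt-1 (0.986) and NFAT (0.981). These are the closest of 9846 genes over 8 points that share 2 genotypes and a scaling, and are given as a description. The white gene w, whose copies often mark transgenes, was at a log2 fold change of 1.36 (edgeR adjusted p = 0.106).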

How the data were processed

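The members, gene lists and naming rule were chosen with earlier results of these data known. The submitters' processing notes name Trimmomatic 0.36, STAR 2.5.2b, Subread 1.5.2 (featureCounts) and the build BDGP6. Per the file headers, the deposited values are featureCounts read counts by gene, unnormalized, with 1 file a library. Neither annotation release nor strand setting is given in the sources used here. 

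The software was edgeR 4.0.16 under R 4.3.3. After filterByExpr by group 9846 genes remained, all 8 members among them. Libraries were scaled by TMM, and glmQLFTest compared the genotypes without covariates. CPM uses TMM factors, and TPM uses the deposited gene lengths. SE was derived from the F statistic. A score is the mean log2 CPM (prior count of 2) of a list's tested genes. Scores with a gap of over a 3rd of their range were taken as clustered. Named from a list were up to 4 genes that passed, or else up to 2 with the highest CPM, and the 3 genes most like Yp1, Yp3, apolpp and LpR2. Eggshell, receptor and tissue genes given by counts or levels alone were added for their role.

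The count test was tested on simulated data (5 sets, each with 200 changed among 9846 genes), where 3.59% of calls were unchanged genes. Alternatives were RLE factors, library totals, limma-voom (limma 3.58.1), DESeq2 1.42.0, TMM without the 20 top genes by count, no filter, a filter at mean CPM 1, the replicate block, 3 score covariates and each library left out. Fits without eggshell-rich libraries and the use of unshared exon lengths were chosen after seeing the data.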

Additional observations from a re-analysis of the deposited data

Results flagged for a closer look

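Of 32 groups of 4 libraries checked with Dixon's ratio at its 95% critical value, 3 held a library far from the others, and chance flags about 1 in 20. Yp3 was at 4388 CPM in 9G8 RNAi 1, below the other 3 libraries of that genotype, which lay close together. The ratio of apolpp to Mtp per kilobase was 16.8 in control 3, above the other 3 controls. The ratio of Apoltp to Mtp per kilobase was 1.40 in control 4, above the other 3 controls.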

How the results depend on the processing

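Across 21 other settings the log2 fold change of Yp1 ran from 1.06 to 2.01, that of Yp2 from 1.34 to 1.89 and that of Yp3 from 0.74 to 1.17, all positive. Yp2 passed in 6 of the 21: library totals, TMM without the 20 most abundant genes, DESeq2, limma-voom, the germline covariate and without 9G8 RNAi 4. The number of members that passed was 2 with library totals (Yp2 and Yp3) and with DESeq2 (Yp1 and Yp2). It was 0 with RLE factors, the replicate block, no filter on low counts, a filter at mean CPM 1, the vitelline membrane or chorion covariate, and without the 3 libraries richest in vitelline membrane or the 2 richest in chorion genes. With a library left out it was 0 to 1. The cause was not tested.

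Over all genes, DESeq2 called 523 (174 higher, 349 lower) and the germline covariate 481 (189 higher). No filter gave 149 higher. Lower genes numbered 132 with the vitelline membrane covariate, 98 without the 3 libraries and 126 without the 2. With a library left out 162 to 504 genes passed, 51 to 124 higher and 105 to 380 lower. The lowest counts came without 9G8 RNAi 2 (all and higher genes) or 9G8 RNAi 1 (lower genes), the highest without 9G8 RNAi 4.

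Under a block for replicate number 141 genes passed (37 higher, 104 lower) and Yp2 had an adjusted p of 0.309. The numbers are not shown to pair the libraries: same-numbered libraries had correlations of -0.57, -0.25, -0.02 and -0.59 between their deviations, and no label ties them.

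The log2 fold change of apolpp, -0.01 with all libraries, was positive with library totals (0.31), TMM computed without the 20 top genes (0.085), unfiltered genes (0.054), the vitelline membrane covariate (0.033), without the 3 libraries (0.36) and without the 2 (0.22), and ranged from -0.47 to 0.25 with a library left out. Left out one at a time, libraries gave -0.10 to 0.81 for Apoltp, -0.14 to 0.55 for Mtp and -0.081 to 0.59 for LpR2. Against the germline score r of Yp2 was 0.07, and -0.37 without the 2 farthest libraries. Adjusted p for Npc2a was also above the threshold with the filter at mean CPM 1 (0.0522) and the block (0.111). Depth was no limit for the members, whose lowest count was 302, and the spread between libraries set the precision.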
